A study of Oryza sativa Japonica Group with 12 samples.

Results

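The comparison described here is that of OsbHLH044 overexpression with its null sister line in couple 67.5, 1 of the 2 independent couples of transgenic rice lines in the series. Its members are 6 of the 12 arrays, chosen by the line names in the labels: 3 of the overexpressing line 67.5.9.12 and 3 of the null line 67.5.13.4. Both lines carry the crl1 mutation in the cultivar Taichung 65. The overexpressing line also carries the pC5300.OE-OsbHLH044 T-DNA, whose promoter is not given in the sources used here, and the null line is its sister line, a segregant that lacks it. Plantlets were 6 days old, were grown at 27 °C with 14 hours of daylight, and the labels describe no treatment other than transfer to liquid medium before harvest. Each array measured RNA from pooled stem bases of an independent repetition of the experiment. The 6 arrays of couple 67.1, with overexpressing line 67.1.11.7 and null line 67.1.1.5, came from the same background, tissue and age, and serve for comparison. Each arm of a couple is a single line, so the transgene and any other difference between 2 sister lines cannot be told apart. In pooled tissue, fewer cells of a type and less RNA per cell cannot be told apart either. No tested probe set carried the name of OsbHLH044 or CRL1, so the levels of the overexpressed and of the mutated gene are not reported here.

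The stem base of a rice seedling holds the shoot apex, leaf bases and the stem tissue in which crown roots, the bulk of the cereal root system, are initiated. CRL1 is an auxin-responsive LOB-domain factor, and crl1 mutants do not form crown roots in the normal way. OsbHLH044 belongs to the basic helix-loop-helix family, whose members bind DNA as dimers. The title of the series links it to cell death, stress and crown root development, and the arrays ask which transcripts differ when it is overexpressed without functional CRL1.

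In couple 67.5 the overexpressing line had less mRNA for a vacuolar water channel, the glyoxylate enzyme isocitrate lyase, a calmodulin-like protein, a vitamin B6 enzyme and a nucleoredoxin, and more for a beta-expansin, an endoglucanase, a clock component and a growth-regulating factor. Of 24251 probe sets tested, 83 passed an adjusted p of 0.05 (limma on log2 values, Benjamini-Hochberg), which is 0.342% of those tested. Of these, 25 rose (0.103% of those tested) and 58 fell (0.239%). A difference of at least 1 on the log2 scale, that is a doubling or more, was found for 6 of the risers and 16 of the fallers. The smallest difference that passed was 0.44, and the median size was 0.74. On all 83 the 3 arrays of one line lay apart from the 3 of the other, which was so for 14.9% of all probe sets.

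The number that passed rested on the arrays of this couple. It was 51 without null 67.5 array 1, 43 without null array 3, and 29, 25 and 20 without overexpressing arrays 1, 2 and 3. It was 79 without null array 2, and lay between 71 and 88 without any 1 array of couple 67.1. Of the 83, 11 passed in each of the 12 fits that left out 1 array. Among the 16 that have an informative gene name, TIP1;2, ICL and Nrx1-1 did so. These 3 were also those of the 16 that passed when all 36643 probe sets of the table were tested, where 33 passed in all. With the 6 arrays of couple 67.5 alone, 29 passed, 6 of the 16 among them.

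**Figure D1:**
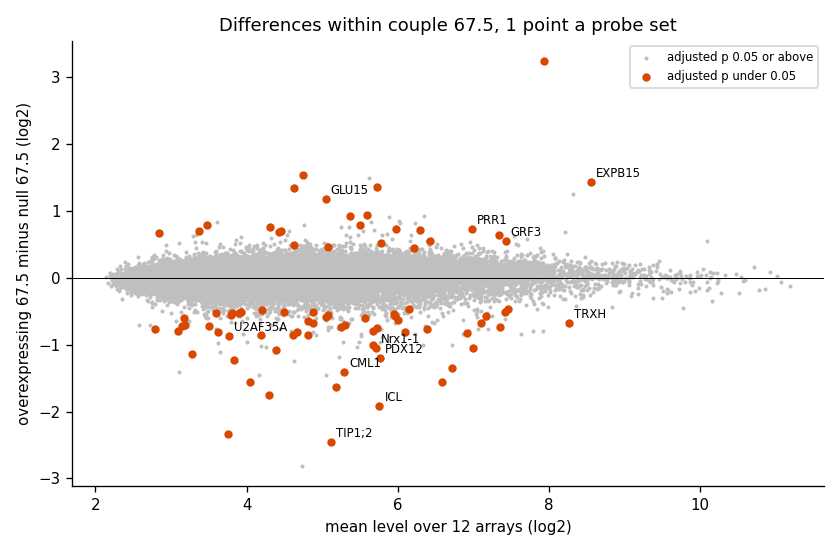
Difference between the overexpressing and the null line of couple 67.5 (vertical axis, log2) against the mean level over 12 arrays (horizontal axis, log2), with 1 point for each of 24251 probe sets. The 83 that passed are in orange, 58 of them below 0, and the largest rise is that of LOC4331887 at 3.24.

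TIP1;2, a water channel of the vacuole membrane, fell furthest of the named genes that passed. Its log2 level was 6.73, 5.70 and 6.83 on the null arrays 1 to 3 and 4.25, 3.90 and 3.75 on the overexpressing arrays. The groups did not overlap, and null array 2 was the lowest of its line by about 1 log2 unit. The difference was -2.45 ± 0.23 (adjusted p = 0.000155, limma), a level 5.48-fold lower. Here and below the value after ± a difference is the SE of limma for 3 arrays against 3. Its spread is pooled over the 12 arrays of 4 lines. For TIP1;2 the SD was 0.62 in the null line and 0.25 in the overexpressing line. In couple 67.1 the same gene differed by -1.14, with an adjusted p of 0.243.

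Isocitrate lyase (ICL) catalyses the first step of the glyoxylate bypass, by which seedlings turn stored fat into sugar. It stood at 6.88, 6.69 and 6.58 on the null arrays and at 5.01, 4.73 and 4.63 on the overexpressing arrays. The arrays of each line lay close together, and the gap between the lines was several times their spread. The difference was -1.92 ± 0.11 (adjusted p = 3.55e-07, limma), a level 3.79-fold lower. ICL also fell in couple 67.1, by 0.84 (adjusted p = 0.0112, limma), and it was the 1 named gene whose fall differed between the couples past the threshold, by -1.08 ± 0.15 (adjusted p = 0.02, limma). That difference between couples did not pass in 8 of the 12 fits without 1 array, with an adjusted p of up to 0.0756.

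PDX12, listed among the vitamin B6 synthesis genes, was measured at 6.51, 6.42 and 7.18 on the null arrays and at 5.73, 5.64 and 5.13 on the overexpressing arrays. The null line was higher throughout, with array 3 the highest. It fell by 1.21 ± 0.21 (adjusted p = 0.0259, limma). The call was lost without null array 1 or 3 or any 1 overexpressing array, with an adjusted p of up to 0.142. Its paralogue PDX11 differed by -0.18 (adjusted p = 0.596, limma).

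Of 9 measured genes of the glyoxylate cycle, peroxisome and vitamin B6 list, ICL and PDX12 fell past the threshold and none rose. Over all probe sets 0.239% fell past it and 0.103% rose. The list's median difference was -0.12, against 0.01 over all tested probe sets. MFP, the multifunctional protein of fatty acid beta-oxidation, differed by -0.03 and its arrays overlapped. Among the peroxisome division factors, PEX11-3 was higher by 0.28 (adjusted p = 0.277) and PEX11-2 lower by -0.24.

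The redox proteins that fell were a nucleoredoxin and a thioredoxin. Nrx1-1, a nucleoredoxin with thioredoxin-like domains, had levels of 6.18, 6.46 and 6.48 on the null arrays and of 5.18, 5.49 and 5.32 on the overexpressing arrays. The lines were well apart with a similar spread. It fell by 1.04 ± 0.13 (adjusted p = 0.00273, limma). Its paralogue Nrx1-2 differed by -0.32 with overlapping arrays (adjusted p = 0.477, limma).

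TRXH, an h-type thioredoxin of the cytosol, was one of the brightest of the 83, at 8.76, 8.49 and 9.05 on the null arrays and 8.00, 8.12 and 8.15 on the overexpressing arrays. All null arrays were above the overexpressing arrays, with array 3 the highest. It fell by 0.68 ± 0.13 (adjusted p = 0.0414, limma), and that call was lost in 9 of the 12 fits without 1 array (up to 0.153). It was kept without null 67.1 array 1 or 3 or null 67.5 array 2.

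In the list of 76 thioredoxins, antioxidant enzymes and glutathione transferases, these 2 fell past the threshold and none rose. Over all probe sets 0.239% fell past it and 0.103% rose. Of the 76, 49 were lower and 27 higher, against 47.3% lower of all probe sets, and the median was -0.03. GSTZ5, a zeta-class glutathione transferase chosen after its values were seen, differed by -0.41 with separate arrays (adjusted p = 0.0908, limma).

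Calcium signalling genes gave 2 falls. CML1, a calmodulin-like calcium sensor, stood at 6.10, 5.42 and 6.63 on the null arrays and at 4.51, 4.69 and 4.74 on the overexpressing arrays. The null arrays spread over more than 1 log2 unit and the overexpressing arrays lay close together. The difference was -1.41 ± 0.22 (adjusted p = 0.0132, limma), and the call was lost without any 1 overexpressing array (up to 0.0552). It was the 1 member of 36 calmodulin-like and calcineurin B-like (CBL) sensors to pass, against 0.342% of all probe sets. The median of the 36 was -0.04. Without a call, CML15 differed by -0.46, and CBL1 and CBL9 by 0.30 and 0.29.

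CIPK23, a protein kinase that CBL sensors activate and that is known to act on potassium and nitrate transporters in Arabidopsis, fell by 0.51 ± 0.09 (adjusted p = 0.031, limma). The null arrays lay between 5.21 and 5.34 and the overexpressing arrays between 4.64 and 4.94. It was the 1 called gene of 54 calcium-dependent and CBL-interacting kinases, against 0.342% called of all probe sets. Of the 54, 30 were lower and 24 higher. The call was lost without any 1 null 67.5 array, or without overexpressing array 1 or 3 (up to 0.143).

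The other named genes that fell have unlike roles. U2AF35A, the small subunit of the U2AF splicing factor, stood at 4.36, 4.30 and 4.84 on the null arrays and at 3.43, 3.56 and 3.91 on the overexpressing arrays, and fell by 0.86 ± 0.15 (adjusted p = 0.0228, limma). Its level in both lines of couple 67.1 was also low, with means of 3.48 in the null line and 3.44 in the overexpressing line, so the null line of couple 67.5 was the one that stood apart. The call was lost without null 67.5 array 3 or overexpressing array 1 or 2 (up to 0.095).

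HSFB2C, a class B heat stress transcription factor, fell by 0.70 ± 0.12 (adjusted p = 0.0186), from a range of 3.40 to 3.70 down to 2.76 to 3.02, which is in the dim part of the scale. ASMT1, which methylates N-acetylserotonin to melatonin, fell by 0.61 ± 0.11 (adjusted p = 0.0314), from 3.41 to 3.85 down to 2.93 to 3.15. RMA values at such levels are compressed. HSFB2C lost its call without null 67.5 array 1 or 3 or overexpressing array 2 or 3 (up to 0.0887), and ASMT1 without null array 2 or 3 or any 1 overexpressing array (up to 0.135).

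HXK4, a hexokinase, fell by 0.48 ± 0.09 (adjusted p = 0.0259), from 4.45 to 4.63 down to 4.03 to 4.11. It was the 1 of 59 genes that move sugars or metabolise sucrose and trehalose to pass, against 0.342% of all probe sets. Of the 59, 34 were lower, with a median of -0.04. The HXK4 call was lost without null 67.5 array 2 or 3 or any 1 overexpressing array (up to 0.105).

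EXPB15 was the largest rise among named genes. Beta-expansins loosen grass cell walls. Its levels were 8.38, 7.92 and 8.27 on the null arrays and 9.40, 10.03 and 9.46 on the overexpressing arrays. The lowest overexpressing array was 1 log2 unit above the highest null array. The rise was 1.44 ± 0.25 (adjusted p = 0.025, limma) and 2.71-fold, and it did not pass without any 1 of the 6 arrays of the couple (up to 0.105). In couple 67.1 EXPB15 was higher by 0.66, without a call. There the overexpressing arrays lay between 8.48 and 8.58, and the null arrays, at 7.26, 8.57 and 7.80, overlapped them.

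GLU15, an endo-1,4-beta-glucanase of the family that trims cellulose, was at 4.75, 4.33 and 4.76 on the null arrays and at 5.54, 6.13 and 5.72 on the overexpressing arrays. Overexpressing array 2 was the highest and null array 2 the lowest, as for EXPB15. It rose by 1.18 ± 0.19 (adjusted p = 0.0144, limma). The call was lost without overexpressing array 2 or 3 (up to 0.0666).

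Of 46 expansins, EXPB15 was the 1 that passed, against 0.342% of all probe sets. Of the 46, 30 were lower and 16 higher, and the median was -0.05. EXPB2 and EXPB6, chosen after their values were seen, differed by 0.65 (adjusted p = 0.28) and 0.51 (adjusted p = 0.339). On the other side, the alpha-expansin EXP7 differed by -0.37 and EXPB11 by -0.35, without a call. Of 77 cellulose, hemicellulose and glucanase genes, GLU15 alone passed, 46 were higher and 31 lower, and the median was 0.02. In the phenylpropanoid and lignin list 0 of 44 passed and 31 were lower, against 47.3% lower of all probe sets. The member with the smallest p, COA20, differed by -0.26 (adjusted p = 0.25, limma).

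PRR1, a pseudo-response regulator and the rice counterpart of the clock component TOC1, was measured at 6.53, 6.69 and 6.73 on the null arrays and at 7.29, 7.48 and 7.38 on the overexpressing arrays. The spread within each line was small beside the gap between them. The rise was 0.74 ± 0.12 (adjusted p = 0.0144, limma). It was lost without null 67.5 array 1 or overexpressing array 2 or 3 (up to 0.0689).

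Among the 7 clock genes measured, PRR1 alone passed, against 0.342% of all probe sets. In 5 of the 7 all overexpressing arrays were above all null arrays, against 8% of all probe sets with that order. The median of the 7 was 0.32. The 4 others of the 5, chosen after their values were seen, are GI with 0.49 (adjusted p = 0.124), PRR95 with 0.65 (0.151), DTH7 with 0.32 (0.305) and PRR73 with 0.30 (0.342). All are components of the evening or daytime loops of the clock. CCA1, the morning-expressed repressor, differed by -0.21 with overlapping arrays (adjusted p = 0.462). These genes vary with the time of day and with each other, and the hour of harvest is not given in the sources used here.

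GRF3 belongs to the growth-regulating factors, which promote cell proliferation in young organs. It stood at 7.01, 7.33 and 7.16 on the null arrays and at 7.63, 7.73 and 7.81 on the overexpressing arrays. The lines did not overlap. It rose by 0.56 ± 0.10 (adjusted p = 0.0319, limma). The call was lost without null 67.1 array 1, null 67.5 array 1 or 3, or any 1 overexpressing 67.5 array (up to 0.166). Of 10 growth-regulating factors 8 were higher and 2 lower, with a median of 0.17. GRF3 alone passed, against 0.342% of all probe sets. In 4 of the 10 all overexpressing arrays were above all null arrays, an order found for 8% of all probe sets. Among these, GRF8 and GRF10, chosen after their values were seen, differed by 0.33 (adjusted p = 0.363) and 0.27 (adjusted p = 0.385).

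**Figure D2:**
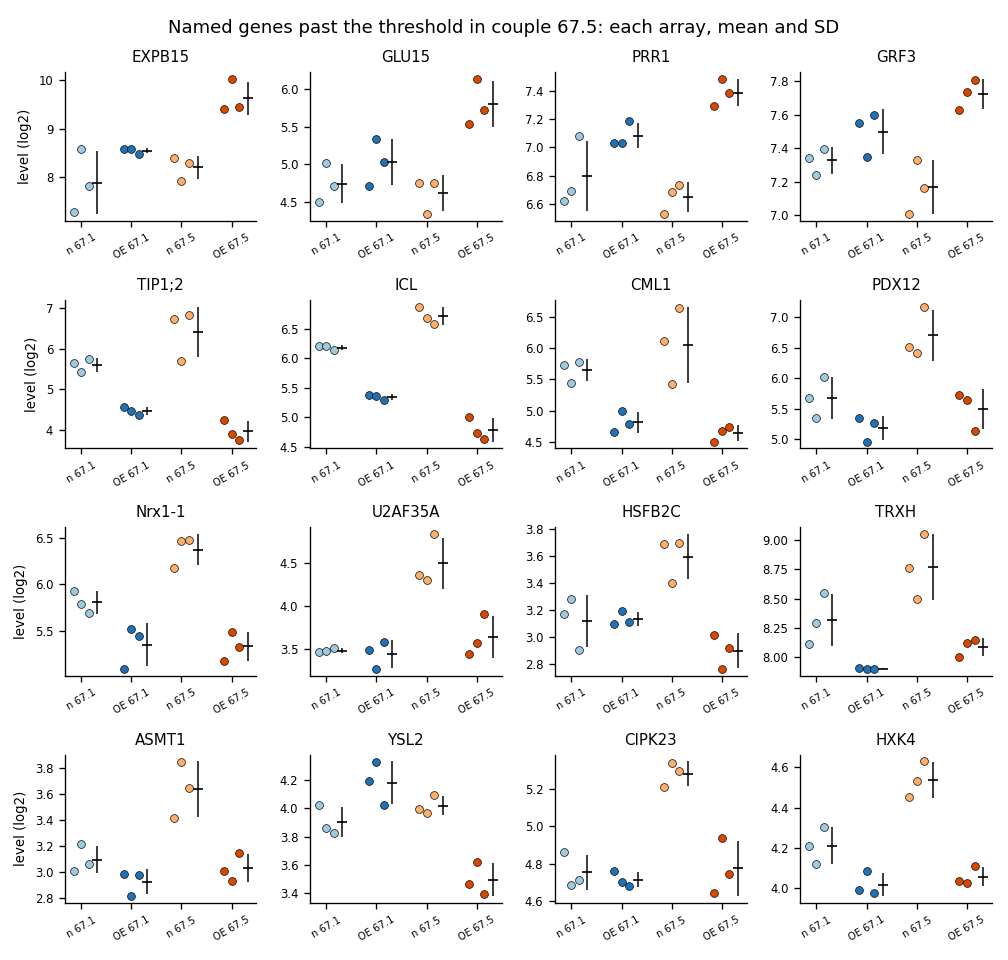
Log2 level of the 16 named genes that passed in couple 67.5, with 1 point per array, in null (n) and overexpressing (OE) lines of both couples. The line and bar beside each group are its mean and SD (3 arrays). The 2 lines of couple 67.5 do not overlap in any panel, and the 4 risers fill the first row.

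Most of the 83 have no informative name. Of the 12 largest of these, 6 in each direction, LOC4331887 rose most. It stood at 6.09, 6.47 and 6.21 on the null arrays and at 9.46, 9.45 and 9.59 on the overexpressing arrays, a rise of 3.24 ± 0.11 (adjusted p = 1.25e-09, limma) or 9.48-fold. It rose as much in couple 67.1, by 3.38, and the couples differed by -0.14 ± 0.16 (adjusted p = 0.992).

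LOC9272344 was at 4.18, 4.20 and 3.78 on the null arrays and at 5.51, 5.54 and 5.75 on the overexpressing arrays. It rose by 1.54 ± 0.15 (adjusted p = 0.000164). LOC4329504 rose by 1.36 ± 0.10 (adjusted p = 1.39e-05), with null arrays between 5.26 and 5.57 and overexpressing arrays between 6.78 and 6.85. LOC9272503 rose by 1.34 ± 0.15 (adjusted p = 0.000966), from between 3.67 and 4.22 to between 5.15 and 5.30. These 4 unnamed risers passed in all 12 fits without 1 array.

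LOC4348634 rose by 0.94 (adjusted p = 0.0144) and LOC4325383 by 0.92 (adjusted p = 0.0219). The first lost its call without null 67.5 array 1 or overexpressing array 2 or 3 (up to 0.0657), and the second without null array 2 or 3 or overexpressing array 2 or 3 (up to 0.117).

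The largest unnamed fall was that of LOC4331301, from 4.42, 4.86 and 6.00 on the null arrays to 2.85, 2.83 and 2.61 on the overexpressing arrays. Null array 3 was far above the other two, and the overexpressing arrays were near the floor of the scale. The difference was -2.33 ± 0.39 (adjusted p = 0.0219, limma), and the call was lost without null array 3 or any 1 overexpressing array (up to 0.107).

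LOC4326757 showed the same shape, with null arrays at 5.50, 4.98 and 6.77 and overexpressing arrays between 3.92 and 4.09, and fell by 1.75 ± 0.31 (adjusted p = 0.0276). LOC4342552 fell by 1.56 ± 0.23 (adjusted p = 0.0128), from 4.82, 4.69 and 5.91 to between 3.56 and 3.61. LOC4348237 fell by 1.56 ± 0.27 (adjusted p = 0.0251), from between 6.93 and 7.95 to between 5.37 and 5.97. In these 3, null array 3 was again the highest by about 1. LOC9266183 fell by 1.35 ± 0.21 (adjusted p = 0.0132), with null array 2 the highest at 7.38. LOC4326757 lost its call without null array 1 or any 1 overexpressing array (up to 0.109), LOC4348237 without null array 3 or any 1 overexpressing array (up to 0.143), and LOC4342552 and LOC9266183 without overexpressing array 2 or 3 (up to 0.0552 and 0.0631).

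Null array 3 was the highest of its line for 36 of the 58 fallers, and arrays 1 and 2 for 11 each. The share over all probe sets was not counted, and the fallers were chosen with these arrays. The counts therefore describe the fallers and test nothing. Without null array 3, 29 fell and 14 rose. Among the 83, 28 had a mean level below the median of all probe sets, 4.54 on the log2 scale. RefSeq lists 79 of them as protein-coding genes, 2 as long non-coding RNAs, 1 as a miscellaneous RNA and 1 as a pseudogene. Of all tested genes 94.4% are protein-coding, 2.69% long non-coding RNAs, 0.65% miscellaneous RNAs and 1.91% pseudogenes.

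The changes in couple 67.5 were mostly in the same direction in couple 67.1 but smaller there. Of the 83, 61 (73.5%) had the same sign in both, against 56.6% of all probe sets, and 81 were larger in couple 67.5, the contrast by which they were chosen. The 58 fallers had a median of -0.74 in couple 67.5 and of -0.16 in couple 67.1, and the 25 risers 0.74 and 0.05. The 2 contrasts share no array. In couple 67.1, 4 probe sets passed (0.0165% of those tested), 3 of which were among the 83. Of the 4, 3 rose (0.0124%) and 1 fell (0.00412%). For 24 of the 83 the arrays of couple 67.1 were also separated in the same direction, and over all probe sets 9.29% were separated there in either direction.

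The difference between the couples was tested directly, and 8 probe sets passed (0.033%), 7 of them among the 83. The difference was positive for 5 (0.0206%) and negative for 3 (0.0124%). Of the other 76, 65 had an unadjusted p under 0.05 in that test, against 5% of all probe sets, and none passed after adjustment. Their choice by the couple 67.5 contrast raises this share.

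Of the 8, LOC9272344 was higher by 1.54 in couple 67.5 and lower by -0.67 in couple 67.1, a difference of 2.21 ± 0.21 (adjusted p = 0.000699, limma). All its overexpressing 67.5 arrays were above the couple 67.1 arrays, the highest of which was at 5.09. LOC4329504 rose in couple 67.5 and stood at a mean of 5.31 in both lines of couple 67.1, and the difference was 1.37 ± 0.14 (adjusted p = 0.00174). LOC9272503 had the same pattern, with 4.70 in both lines of couple 67.1 and a difference of 1.33 ± 0.21 (adjusted p = 0.0437).

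LOC9267697, a long non-coding RNA in RefSeq, moved in opposite directions. It was at 5.16, 5.56 and 6.40 on the null 67.5 arrays and at 4.35, 3.68 and 4.18 on the overexpressing 67.5 arrays. In couple 67.1 the null arrays were at 4.50, 4.37 and 4.65 and the overexpressing arrays at 7.02, 6.21 and 6.10. So it fell by 1.63 in couple 67.5 (adjusted p = 0.0242) and rose by 1.94 in couple 67.1 (adjusted p = 0.0381), and the difference of -3.57 ± 0.40 passed with an adjusted p of 0.00223 (limma). Its fall in couple 67.5 lost its call without null array 3 or any 1 overexpressing array (up to 0.105).

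LOC4343264 is the reverse case, a rise of 1.31 in couple 67.1 with a difference of -0.01 in couple 67.5, where its 6 arrays ran from 4.48 to 4.72. The couples differed by -1.32 ± 0.20 (adjusted p = 0.0398). LOC4348634 and LOC4349509 were higher in couple 67.5, by 0.94 and 0.69, and lower in couple 67.1, with -0.45 and -0.39. LOC4349509 lost its couple 67.5 call without overexpressing array 1 or 2 (up to 0.0605). The number of probe sets that differed between couples ran from 3 to 7 when 1 array was left out. It was 3 without null 67.1 array 1, null 67.1 array 2 or overexpressing 67.5 array 2, 4 without overexpressing 67.5 array 3, and 5 without null 67.1 array 3, overexpressing 67.1 array 1, null 67.5 array 2 or overexpressing 67.5 array 1.

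**Figure D3:**
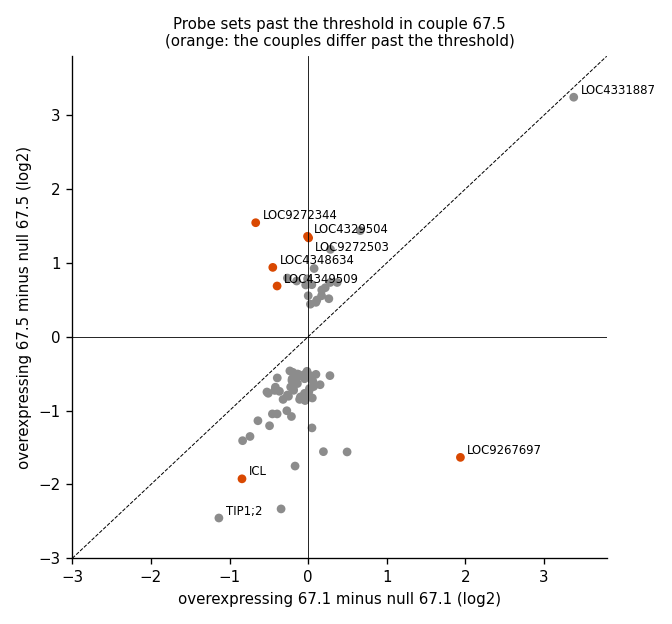
Difference between overexpressing and null line in couple 67.5 (vertical axis, log2) against that in couple 67.1 (horizontal axis, log2) for the 83 probe sets that passed in couple 67.5. The dashed line marks equal differences. The 7 in orange differed between couples past the threshold, and LOC9267697 lies far to the lower right with -1.63 and 1.94.

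For the fallers, the null line of couple 67.5 was often the one that stood apart from the other lines. In 35 of the 58, all 3 null 67.5 arrays were above all 6 arrays of couple 67.1, and in 22 all 3 overexpressing arrays were below them, with 6 in both counts and 7 in neither. Over all probe sets these orders held for 5.47% and 8.01%. For the 25 risers it was the overexpressing line, whose arrays were above all couple 67.1 arrays in 19 (13.1% of all probe sets), while the null arrays were below them in 6 (3.79%). The 83 were chosen with these same 6 arrays of couple 67.5, so the counts describe them and test nothing.

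The iron and nicotianamine genes showed the widest differences without a call. Grasses make nicotianamine with the NAS enzymes, use it to carry iron and zinc, and convert it through NAAT1 to the phytosiderophores that they release to take up iron. YSL2, a transporter of metal-nicotianamine complexes, was the 1 of 45 that passed, against 0.342% of all probe sets. It fell by 0.53 ± 0.10 (adjusted p = 0.0367, limma), from between 3.97 and 4.09 on the null arrays to 3.46, 3.62 and 3.40 on the overexpressing arrays. The arrays of each line lay close together and the lines did not overlap. In couple 67.1 it differed by 0.28, and its call was lost in 9 of the 12 fits without 1 array (up to 0.194). It was kept without null 67.1 array 1 or overexpressing 67.1 array 2 or 3.

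NAS1, chosen after its values were seen, had the most negative difference of all tested probe sets. It stood at 4.51, 5.97 and 7.73 on the null arrays and at 3.19, 3.09 and 3.49 on the overexpressing arrays. The null arrays spread over more than 3 log2 units, and all were above the overexpressing arrays. The difference of -2.81 ± 0.61 did not pass (adjusted p = 0.0818, limma). Without null array 1 it was -3.59 and passed (adjusted p = 0.0209), and without null array 3 it was -1.98 (adjusted p = 0.182).

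NAS2, its neighbour and close paralogue, differed by -1.45 (adjusted p = 0.26) with null arrays at 3.99, 4.43 and 6.40. The null arrays rank alike for NAS1 and NAS2, and sharing of signal between these related sequences was not tested. NAAT1, like NAS2, was chosen after its values were seen. NAAT1 differed by -0.88 ± 0.18 (adjusted p = 0.0518), from between 4.29 and 4.96 to between 3.46 and 4.15. It passed without null 67.5 array 1 (adjusted p = 0.0477) or overexpressing 67.5 array 1 (adjusted p = 0.0156), with further quantile normalization (0.0476) and with an intensity trend in the variance (0.0453). Of the 45 genes 34 were lower and 11 higher, against 47.3% lower of all probe sets, with a median of -0.08. The ferrous iron transporter IRT1 differed by 0.03.

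Of 27 aquaporins 22 were lower, against 47.3% lower among all probe sets, and the median was -0.15. TIP1;2 alone passed. In 9 all null arrays were above all overexpressing arrays, an order found for 6.88% of all probe sets. Lsi1, the silicon influx channel of roots, differed by -0.49 ± 0.10 (adjusted p = 0.0712) and DTE1, which RefSeq also lists as NIP3;1, by -0.57 ± 0.12 (adjusted p = 0.0605). PIP1;3, a plasma membrane water channel, differed by -0.83 (adjusted p = 0.22), with null arrays at 3.88, 4.12 and 5.25. Lsi1, DTE1 and PIP1;3 were chosen after their values were seen. DTE1 passed without null 67.1 array 2 (adjusted p = 0.0466), and Lsi1 without overexpressing 67.1 array 1 (0.0453) or 3 (0.0474). With further quantile normalization both passed, Lsi1 with an adjusted p of 0.04 and DTE1 with 0.0405 (limma). In couple 67.1, 18 of the 27 aquaporins were lower, with a median of -0.07. There TIP1;2 differed by -1.14, and Lsi1, DTE1 and PIP1;3 by 0.01, 0.04 and 0.02. Of 91 mineral ion transporters 0 passed and 62 were lower, with a median of -0.07. MRS2-E, a magnesium transporter, had the smallest p there, with -0.36 (adjusted p = 0.174).

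Of 49 heat shock proteins and factors, HSFB2C alone passed, 36 were lower and 13 higher, and the median was -0.15, the lowest of the 39 lists. In 15 of the 49 the null arrays were all above the overexpressing arrays, an order found for 6.88% of all probe sets. HSP81-1, a cytosolic HSP90 chaperone chosen after its values were seen, differed by -0.60 ± 0.13 in couple 67.5 (adjusted p = 0.0908). Its null 67.5 arrays were at 5.37, 5.36 and 5.92, and its means in couple 67.1 were 5.04 (null) and 4.96 (overexpressing). The small heat shock proteins HSP18.9 and HSP22.3 differed by -0.41 and -0.38 in couple 67.5. The chaperones of the endoplasmic reticulum were not mostly lower there, with 15 of 27 higher, a median of 0.01 and 0 passing. DJC27 had the smallest p among them, with -0.55 (adjusted p = 0.097).

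Genes of root patterning, which the study's theme of crown root formation brings up, did not pass. Of 12 measured, 6 were higher and 6 lower, with a median of -0.01. SCR1, a GRAS factor of the root endodermis and quiescent centre region, had the smallest p, with 0.54 ± 0.15 (adjusted p = 0.212). QHB, the quiescent centre homeobox gene, differed by 0.05, SHR1 by -0.04, HOX1 by 0.02 and WOX11, a known promoter of crown root emergence, by -0.04, all with overlapping arrays.

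Cell cycle and DNA replication genes were higher more often than lower, 49 against 15 of 64, with a median of 0.08 and 0 passing. Over all probe sets 47.3% were lower. ORC4, a subunit of the origin recognition complex, had the smallest p, with 0.36 (adjusted p = 0.263). In 12 of the 64 all overexpressing arrays were above all null arrays, an order found for 8% of all probe sets. In couple 67.1 the median was 0.05. Cytosolic ribosomal proteins were higher in 21 of 25, with a median of 0.07, and RPL7A-2 had 0.30 (adjusted p = 0.397). Of 10 histone genes 5 were higher and 5 lower, and H2B.3 had 0.11 (adjusted p = 0.663).

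Among the hormone lists 0 members passed. Auxin genes divided into 39 higher and 36 lower with a median of 0.01, and PIN5b, an auxin transporter, had the smallest p with -0.42 ± 0.11 (adjusted p = 0.177). For cytokinin the breakdown enzyme CKX11 had -0.27 (adjusted p = 0.386), for ethylene the receptor ERS2 had 0.29 (adjusted p = 0.422), and for gibberellin CYP701A9 had -0.30 (adjusted p = 0.202). Of 93 genes of abscisic acid and dehydration 48 were higher, and the dehydrin RAB16C had -0.48 (adjusted p = 0.153). The jasmonate repressor JAZ3 had 0.38 (adjusted p = 0.12).

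In the cell death, autophagy and senescence list 0 of 27 members passed, 13 were higher and 14 lower, and the median was -0.04. NOL, a chlorophyll b reductase, had the smallest p, with 0.56 (adjusted p = 0.131). SAG12, a senescence-associated cysteine protease chosen after its values were seen, differed by -1.19 ± 0.30 (adjusted p = 0.147), with null arrays at 6.41, 5.19 and 6.06 and overexpressing arrays between 4.59 and 4.77. It passed without null 67.1 array 3 (adjusted p = 0.0381) or null 67.5 array 2 (adjusted p = 0.0359). In couple 67.1 SAG12 differed by -0.89, also with separate arrays and without a call. Of 23 pathogenesis-related proteins and chitinases 15 were lower, with 0 passing and Cht6 at -0.29 (adjusted p = 0.224). Of 17 diterpenoid phytoalexin genes 16 were lower, against 47.3% of all probe sets, with a median of -0.09, and 0 passed. CYP76M7 had -0.23 (adjusted p = 0.423), and its 12 arrays ran from 2.47 to 3.03, near the floor of the scale.

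Of the 37 cytochrome P450 genes 32 were lower, against 47.3% of all probe sets, with a median of -0.09, and 0 passed. The receptor kinase list had CRK6 at -0.23 (adjusted p = 0.415), and the low oxygen list had Adh2, alcohol dehydrogenase, at 0.31 (adjusted p = 0.524). The 6 lists of transcription factors other than the growth-regulating factors had 0 calls. Their members with the smallest p were BHLH003 with -0.31 (adjusted p = 0.327), OSH45 with 0.26 (0.285), NAC076 with -0.10 (0.679), MYBS2 with -0.19 (0.478), AP2-4 with 0.49 (0.246) and WRKY9 with 0.26 (0.449). Of the 17 bHLH factors themselves 10 were lower and 7 higher.

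**Figure D4:**
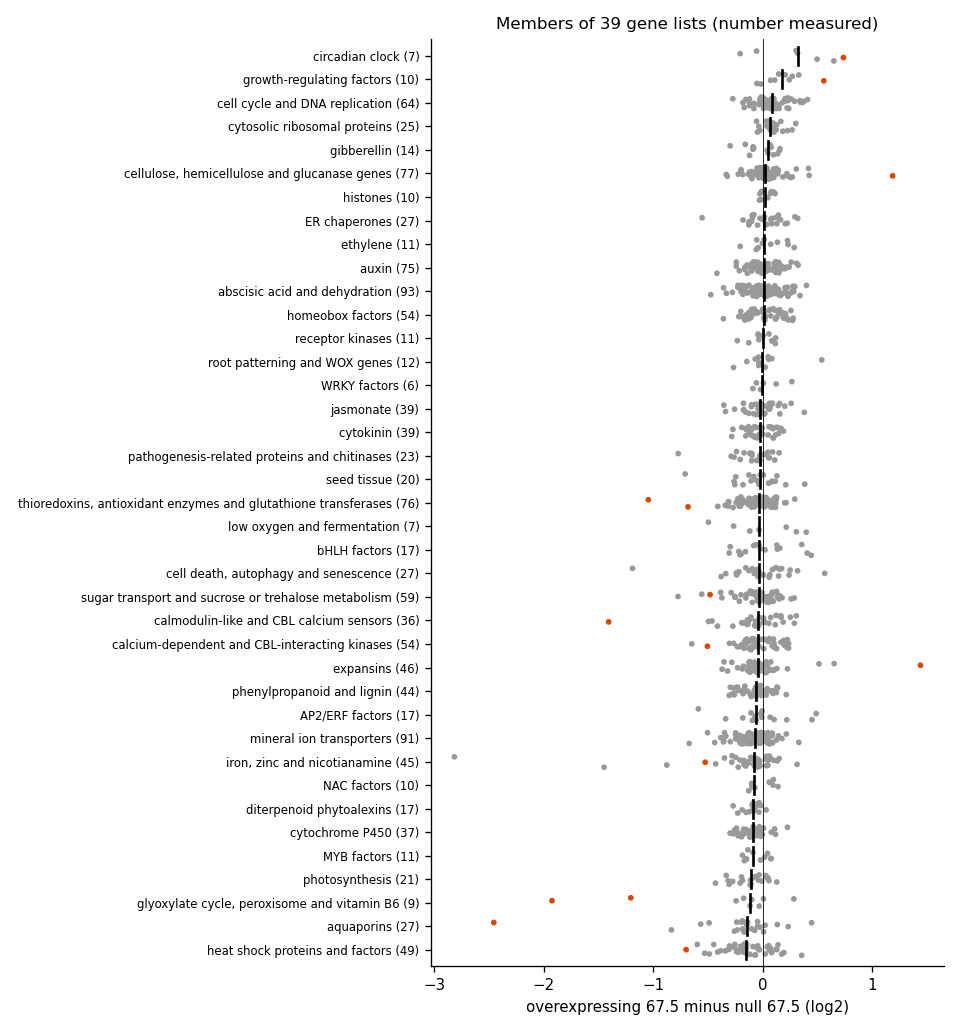
Difference between the overexpressing and the null line of couple 67.5 (horizontal axis, log2) for the members of 39 gene lists, with 1 point per gene, calls in orange and the median as a bar. The lists are ordered by median, from -0.15 for heat shock proteins to 0.32 for clock genes. Each call is 1 or 2 genes of its list, while most members lie near 0.

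Markers of the tissues that a stem base sample may hold were compared as summed levels, the log2 of the sum of a list's linear levels on an array. The green tissue list, of which 7 of 7 were lower, ranged from 10.9 to 11.0 on the null 67.5 arrays and from 10.6 to 10.7 on the overexpressing arrays, without overlap. Both lines of couple 67.1 lay between 10.6 and 10.7, so the null line of couple 67.5 stood apart. The subunit PSAH of photosystem I differed by -0.43 (adjusted p = 0.317), and RCABP69, a chlorophyll-binding protein, by -0.31 (adjusted p = 0.239). In the wider photosynthesis list 16 of 21 were lower and 0 passed, and in the wider seed list 11 of 20 were lower and 0 passed.

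For root markers 11 of 15 were lower, and the sums ran from 8.53 to 8.57 in the null line and from 8.28 to 8.51 in the overexpressing line. These sums did not overlap either, and all 6 arrays of couple 67.1 lay between 8.41 and 8.72. The root genes IRT1 and YSL15 were near the floor in both lines, with means of 2.98 and 2.74 in the null line and 3.02 and 2.70 in the overexpressing line. For seed markers 6 of 7 were lower, with sums from 5.77 to 6.07 and from 5.64 to 5.79, and the alpha-amylase AMY1.1 differed by -0.71 (adjusted p = 0.134) and passed without null 67.5 array 2 (adjusted p = 0.0249). The sums of the shoot meristem, root meristem and vascular lists overlapped between the lines. The 43 markers of dividing cells had summed levels that overlapped, of 11.73 to 11.83 and 11.81 to 11.90, with 31 higher and 12 lower. Shoot meristem genes such as OSH1 were measured in both lines at means of 5.57 and 5.52. The part of these tissue differences in the calls above was not tested.

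**Figure D5:**
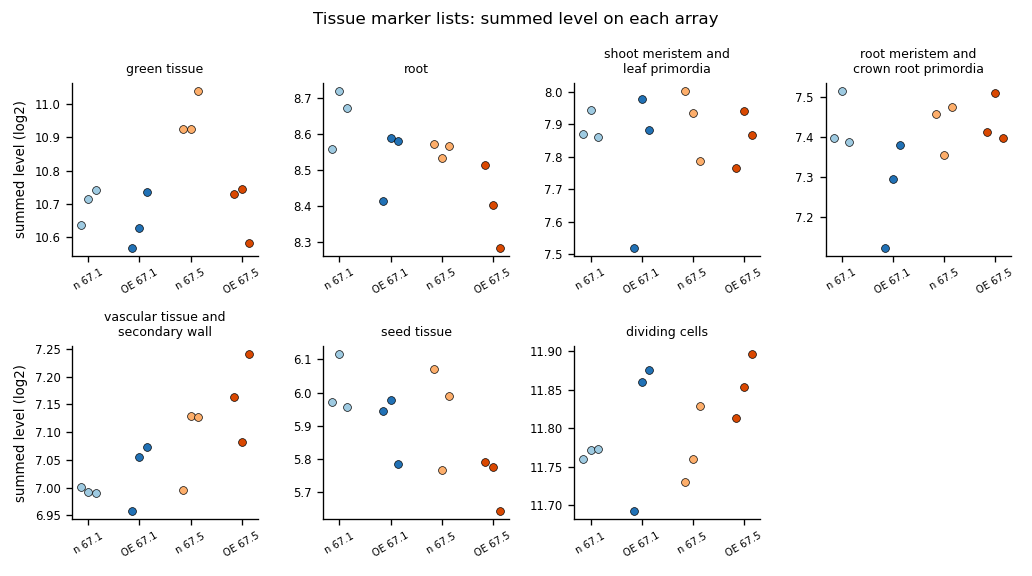
Summed level (log2) of 7 tissue marker lists on each array, for null (n) and overexpressing (OE) lines of both couples. The green tissue sums of the 3 null 67.5 arrays lie above those of all other arrays, while most other lists overlap.

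The 83 genes lie on all 12 chromosomes, with 1 to 15 on each, and 2 pairs are neighbours in the RefSeq gene order. Next to TIP1;2 lies LOC4324302, which fell by 0.77 (adjusted p = 0.0128), and in the second pair LOC4334969 rose by 0.72 (adjusted p = 0.00386) while LOC4334970, listed as a pseudogene, fell by 1.08 (adjusted p = 0.00273). LOC4324872 and LOC4324873, which are 2 places apart, fell by 0.75 and 0.81. The calls were lost for LOC4324302 without overexpressing 67.5 array 1 or 3 (up to 0.0609), for LOC4324873 without overexpressing array 3, and for LOC4324872 without null 67.5 array 1 or 3 or overexpressing array 1 (up to 0.0591). These 5 genes were chosen after their values were seen. The gene order is that of assembly ASM3414082v1, and the build behind the array is not stated.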

How the data were processed

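Total RNA (6 µg per array) was turned into biotin-labelled cRNA, per the labels' protocols, for Affymetrix arrays read in 1 colour, 1 array per sample. The deposited values are log2 levels after RMA, made by the authors per the submitters' processing notes; the version is not given in the sources used here. This method equalises the arrays and compresses low levels, so total RNA per sample cannot be read from the values. Precision is limited by the number of arrays. Array medians ran from 4.34 to 4.39.

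Of 36643 probe sets, the platform annotation paired 24251 with a gene, 24161 with 1 and 90 with several, and these 24251 were tested. Names came from the RefSeq gene table of ASM3414082v1. All 24160 genes had a record and 2743 an informative name. Control probe sets could not be told from other unannotated ones.

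limma 3.58.1 (R 4.3.3) fitted the 4 line means over the 12 arrays together (8 residual degrees of freedom), with two-sided tests and Benjamini-Hochberg adjustment over all tested probe sets. With 3 arrays against 3, the smallest p of an exact permutation is 0.1, and genes were therefore tested in this fit. Per the labels, repetitions were independent experiments, and p-values measure the spread between these repetitions. On simulated data with the same 24251 probe sets, 48 of 100 changes of 0.5 and 97 of 100 changes of 1 were recovered in couple 67.5. Of the 151 calls there, 6 were false. The simulated noise was independent between probe sets, so deviations that many probe sets of an array share were not simulated. It was also normal, with the same SD in all 4 lines for a probe set. In the data the median SD was 0.130 in null 67.5 and between 0.103 and 0.117 in the other lines.

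The 39 gene lists and the marker lists were matched by symbol or synonym. Members and lists were chosen with earlier results of these data known. Named genes are, among those that passed, up to 15 named and 6 unnamed in each direction by size, up to 5 in each direction for the difference between couples, and per list up to 3 in each direction or else the member with the smallest p. Genes outside this rule were chosen after their values were seen, also where their paragraph does not repeat it. Alternatives were the 6 arrays alone, a replicate block, all probe sets, quantile normalization, a filter at the median level, an intensity trend and leaving out each array.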

Additional observations from a re-analysis of the deposited data

Results flagged for a closer look

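The change with overexpression differed between the 2 couples for 8 probe sets, as tested by the difference of the couples' differences in limma. The difference, couple 67.5 minus couple 67.1, was 2.21 for LOC9272344, 1.39 for LOC4348634, 1.37 for LOC4329504, 1.33 for LOC9272503 and 1.08 for LOC4349509. It was -1.08 for ICL, -1.32 for LOC4343264 and -3.57 for LOC9267697. LOC9272344, LOC4329504 and LOC9267697 passed in every fit tried. Of the 12 fits without 1 array, the call was lost in 8 for ICL, 7 for LOC4349509, 10 for LOC4348634, 11 for LOC4343264 and 11 for LOC9272503.

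Calls were also found among the 12392 probe sets outside the annotation. With all 36643 probe sets tested, 13 of these 12392 passed in couple 67.5, 8 higher and 5 lower. That share is similar to the share over the whole table, where 33 of 36643 passed. The largest rise, 6.84 (adjusted p = 3.83e-12, limma), took probe set 16362807 from a mean of 3.90 ± 0.07 (SD, 3 arrays) in the null line to 10.7 ± 0.13 in the overexpressing line, and it rose by 6.58 in couple 67.1. The largest fall, -5.67, took probe set 16270679 from 9.06 ± 0.68 to 3.39 ± 0.11, with a fall of -4.27 in couple 67.1. Probe set 16342606 fell by 2.70 in couple 67.5 and by 2.65 in couple 67.1. Probe set 16165683 rose by 2.11 in couple 67.5 and differed by 0.11 in couple 67.1. The genes behind these 4 are not named in the tables used here.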

How the results depend on the processing

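The 83 calls of couple 67.5 became 29 with its 6 arrays alone and 33 with all probe sets of the table, of which 20 were among the 83. They became 98 with further quantile normalization, 62 with the filter at the median level and 88 with an intensity trend, and ran from 20 to 88 without 1 array. The fit with the repetition number as a replicate block gave 118 calls, 82 of them among the 83, and under it NAS1 and DTE1 also passed (adjusted p = 0.0313 and 0.0275, limma). NAAT1, Lsi1 and DTE1 also passed with quantile normalization (0.0476, 0.04 and 0.0405), and NAAT1 with the trend (0.0453). Deviations of same-numbered arrays of the 2 lines correlated with 0.29, -0.12 and 0.25 in couple 67.5. In couple 67.1 these correlations were 0.08, 0.24 and 0.42. Correlations between different numbers ran from -0.39 to 0.22. Overexpressing 67.5 array 2 correlated best with null array 1 (0.15), and every other overexpressing array with the null array of its own number. The numbers were not taken to pair the arrays in the main fit. The 8 differences between couples became 5 with quantile normalization, 10 with the block, 7 with all probe sets, 9 with the filter, 9 with the trend, and 3 to 7 without 1 array. The named genes that passed kept their direction in every fit. Reversals without 1 array concerned values near 0, which ran from -0.061 to 0.058 for LOC4343264, from -0.068 to 0.21 for QHB, from -0.033 to 0.053 for HOX1, from -0.092 to 0.021 for SHR1 and from -0.10 to 0.027 for WOX11. The causes of these changes were not tested. Changes of 0.5 are near what 3 arrays per line can show.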
